A study of Drosophila melanogaster with 6 samples.

Results

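Long noncoding RNA (lncRNA) and antisense RNA (asRNA) genes were examined for nascent transcription in stage 5 embryos of Drosophila melanogaster, when the zygotic genome is activated (ZGA). Members were the genes of the deposited count table whose FlyBase identifier has a dm6 symbol starting with lncRNA: or asRNA: and whose length is under 50000 bases, with the dosage compensation RNAs roX1 and roX2 left out. There were 2375 of 17753 genes in the table, 1886 of them lncRNA and 489 asRNA genes, and 11 longer genes such as lncRNA:flam and lncRNA:iab8 stayed out. Transcription was measured by GRO-seq, in which isolated nuclei extend the RNA already under synthesis and the labelled RNA is sequenced by strand. DomKD embryos (genotype t216) came from mothers that expressed a short hairpin RNA against domino under a maternal germline Gal4 driver, and Ctrl embryos (genotype t180) came from mothers of the matching control line with the same driver. Each library was a pool of hand-picked embryos, and each group had 3 libraries. The library labels carry the letter A or B, which was read here as a batch, though the labels do not say what it stands for. The 2 batches so defined were unbalanced: batch A held DomKD A1, DomKD A2 and Ctrl A1, and batch B held DomKD B1, Ctrl B1 and Ctrl B2. Values of single libraries are given below in the order A1, A2, B1 for DomKD and A1, B1, B2 for Ctrl.

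Domino is the ATPase of the SWR1-type complex that places the histone variant H2A.Z in chromatin. LncRNA genes are transcribed by RNA polymerase II without a long open reading frame, and in the early fly embryo they include host transcripts of microRNAs (miRNAs) and transcripts across the regulatory regions of the Hox complexes. An asRNA gene lies on the strand opposite to another gene, so only reads counted by strand can tell the pair apart. At ZGA many early genes carry TAGteam sites, bound by the pioneer factor Zelda, while promoters of broadly used genes often carry the DRE, bound by DREF.

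The sequences below are mature miRNAs encoded inside member lncRNA genes whose nascent signal passed the test between DomKD and Ctrl, from RefSeq, and they show which regulatory products those transcripts carry. The seed (bases 2 to 8), with which a miRNA pairs to its targets, is in capitals, and U is written as T.
mir-10-5p, in lncRNA:CR42651: aCCCTGTAgatccgaatttgtt
mir-iab-4-5p, in lncRNA:iab4: aCGTATACtgaatgtatcctga
mir-9a-5p, in lncRNA:CR45916: tCTTTGGTtatctagctgtatga
mir-1-3p, in lncRNA:CR45361: tGGAATGTaaagaagtatggag
mir-bft-5p, in lncRNA:CR43314: aATGGCACtggaagaattcacggg
mir-276a-3p, in lncRNA:CR46006: tAGGAACTtcataccgtgctct
mir-276b-3p, in lncRNA:CR46004: tAGGAACTtaataccgtgctct
mir-13a-3p, in lncRNA:CR45911: tATCACAGccattttgatgagt
mir-13b-1-3p, in lncRNA:CR45911: tATCACAGccattttgacgagt
mir-2c-3p, in lncRNA:CR45911: tATCACAGccagctttgatgggc
mir-279-3p, in lncRNA:CR31044: tGACTAGAtccacactcattaa
mir-996-3p, in lncRNA:CR31044: tGACTAGAtttcatgctcgtct
By seed, mir-276a and mir-276b formed one group, mir-13a, mir-13b-1 and mir-2c another, and mir-279 and mir-996 one more, and every other seed shown stood alone in this list.

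Total counts ran between 10660708 and 15790602 in DomKD libraries and between 12487166 and 24537992 in Ctrl libraries. The targeted gene dom had 5963, 6219 and 12916 reads in DomKD, against 11954, 23099 and 18301 reads in Ctrl, a log2 fold change of 0.01 ± 0.18 (SE, adjusted p = 0.973, edgeR quasi-likelihood test). RNA interference acts on the finished transcript, so the nascent level of dom does not check the labels. Of the stage 5 marker genes, nullo, bnk, slam and halo passed the test as higher in DomKD, and Sry-alpha had no read. The sum of these markers was 10690 to 23040 CPM in DomKD libraries and 2535 to 9329 CPM in Ctrl libraries, and nullo had 693, 357 and 14.4 CPM in DomKD, against 150, 8.50 and 8.97 CPM in Ctrl. The DomKD libraries were higher than the Ctrl libraries in this sum, and in each group the libraries of batch A were the higher ones. Its part in the values of the members was not tested. Germline markers (4 in the table) summed to 97.9 to 118 CPM in DomKD and 98.5 to 101 CPM in Ctrl, and of 5 follicle cell markers 4 had no read in any library. The 3 yolk protein genes summed to 2.34 to 5.66 CPM in DomKD and 6.01 to 10.2 CPM in Ctrl, groups that did not overlap, and neither Yp1 nor Yp3 passed the test, with Yp2 too low to be tested. Of 5 markers of later neurons, glia and muscle, which summed to 317 to 597 CPM in DomKD and 340 to 553 CPM in Ctrl, Syt1 was higher. The part of these markers in the members' values was not tested either.

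Most members gave little or no signal. Among lncRNA genes 912 had no read in any library, 538 had reads but a mean under 10 counts, and 436 were tested. Among asRNA genes the numbers were 114, 151 and 224. Overlap set part of this, since reads shared by overlapping genes of one strand are not counted: all 178 lncRNA and 15 asRNA genes that other genes of the same strand cover fully had no read. All lncRNA genes together took 2.28%, 2.33% and 2.18% of the counts in DomKD, against 1.84%, 1.75% and 1.71% in Ctrl. All asRNA genes took 0.185%, 0.185% and 0.220% in DomKD, against 0.231%, 0.254% and 0.270% in Ctrl. The groups did not overlap for either class, with the share of lncRNA genes higher and the share of asRNA genes lower in DomKD. The 5 members with most reads held 53.7% to 61.1% of the lncRNA reads in DomKD libraries and 43.8% to 52.7% in Ctrl libraries.

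To ask which of these genes differ when maternal Domino is depleted, DomKD and Ctrl were compared with edgeR across all 10429 genes tested, with TMM scaling and batch in the model. Fold changes are log2, DomKD over Ctrl, relative to the bulk of genes, and in pooled embryos fewer transcribing cells cannot be told apart from less RNA per cell. Of 436 lncRNA genes 52 were higher and 4 were lower in DomKD at an adjusted p under 0.05. Of 224 asRNA genes 12 were higher and 9 were lower. Over all genes tested, 21.7% passed, 12.1% as higher and 9.64% as lower, so the shares of lncRNA genes that were higher (11.9%) and lower (0.917%) stood near and below the background, and those of asRNA genes (5.36% and 4.02%) stood below it. DomKD and Ctrl libraries did not overlap in 31.4% of lncRNA and 27.7% of asRNA genes tested, against 40.6% of all genes tested. The median log2 fold change was 0.50 for lncRNA genes, -0.10 for asRNA genes and -0.07 for all genes tested. Without DomKD B1, the one DomKD library of batch B, edgeR called 0 members, with 72 lncRNA and 35 asRNA genes at an unadjusted p under 0.05. The loss was not particular to the members, since over all genes tested 9 passed without DomKD B1. In that fit 2530 of all 10429 genes had an unadjusted p under 0.05.

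The share of calls differed by the level of the gene. At a mean of 10 to 100 reads, 4 of 295 lncRNA genes were higher and 1 was lower, and of 2619 tested genes outside the 2 classes 35 were higher and 20 were lower. At 100 to 1000 reads, 23 of 105 lncRNA genes (21.9%) were higher and 0 lower, against 8.68% higher and 13.4% lower among 4507 other genes. At 1000 reads or more, 25 of 36 lncRNA genes (69.4%) were higher and 3 were lower, against 29.1% and 13.8% of 2643 other genes. The median log2 fold change of these 36 lncRNA genes was 0.99, and that of the other genes was 0.15. The asRNA genes moved in both directions at 100 to 1000 reads, where 8 of 81 were higher and 7 were lower.

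**Figure D1:**
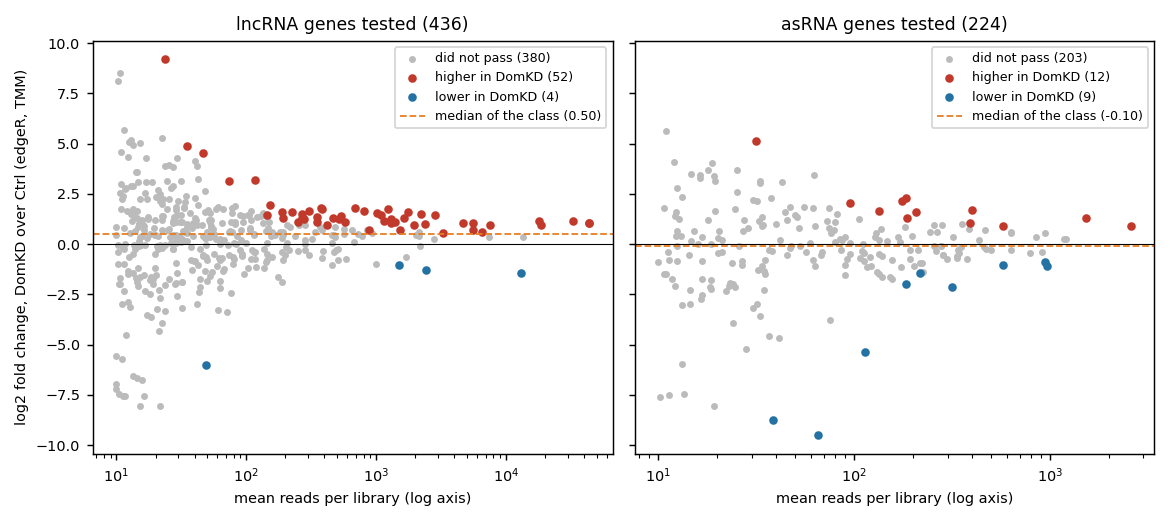
Log2 fold change of each tested member (DomKD over Ctrl, TMM scaling) against its mean reads per library on a log axis, with lncRNA genes on the left and asRNA genes on the right. The dashed line is the class median. Among lncRNA genes with 1000 reads or more, 25 of 36 passed as higher in DomKD under this scaling, and with scaling on the Zelda target list none of these 25 passed as higher. The asRNA genes passed in both directions under TMM, and with the Zelda target list 0 passed as higher and 52 as lower. Over all 10429 genes tested the list gave 63 higher and 4841 lower.

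The direction of many values rested on the scaling. The study scaled its libraries on a set of Zelda target genes, and scaling here on a list of such genes (47 in the table, written from general knowledge, with nullo, bnk, slam and halo among them) put the median of all genes at -1.11, that of lncRNA genes at -0.51 and that of asRNA genes at -1.15. With it, 39 of the 52 higher lncRNA genes stayed above 0 and 2 still passed as higher, lncRNA:CR45915 and lncRNA:CR45032, and of the 12 higher asRNA genes 10 stayed above 0 and 0 passed as higher, with 1 asRNA gene higher at an unadjusted p under 0.05. All 4 lower lncRNA genes and all 9 lower asRNA genes passed as lower, on a scale that moved the bulk of genes down. In all, the calls on this list were 2 higher and 45 lower among 436 lncRNA genes and 0 higher and 52 lower among 224 asRNA genes, and by DESeq2 on it 6 and 61 among lncRNA genes and 2 and 60 among asRNA genes. Over all 10429 genes tested the list gave 63 higher and 4841 lower, and DESeq2 on it gave 57 and 4907. At an unadjusted p under 0.05 the list in edgeR gave 109 higher genes over all genes tested. The lower calls were thus a smaller share of either class than of all genes. Counted as a difference from the median of all genes, the lncRNA median was 0.57 with TMM, 0.58 with RLE and with the upper quartile, 0.60 with total counts and 0.60 with the Zelda target list. For asRNA genes this difference lay at or between -0.04 and -0.02 under these 5 scalings. Within batch A the lncRNA median was 0.23 and that of all genes -0.15, and within batch B the medians were 0.57 and -0.03. A change of scaling moves all genes by nearly the same amount, so these differences could hardly vary between the 5 scalings. With no count filter the lncRNA difference was 0.12. In each batch the lncRNA median lay above that of all genes, and "higher" and "lower" for a single gene hold relative to the bulk of genes.

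**Figure D2:**
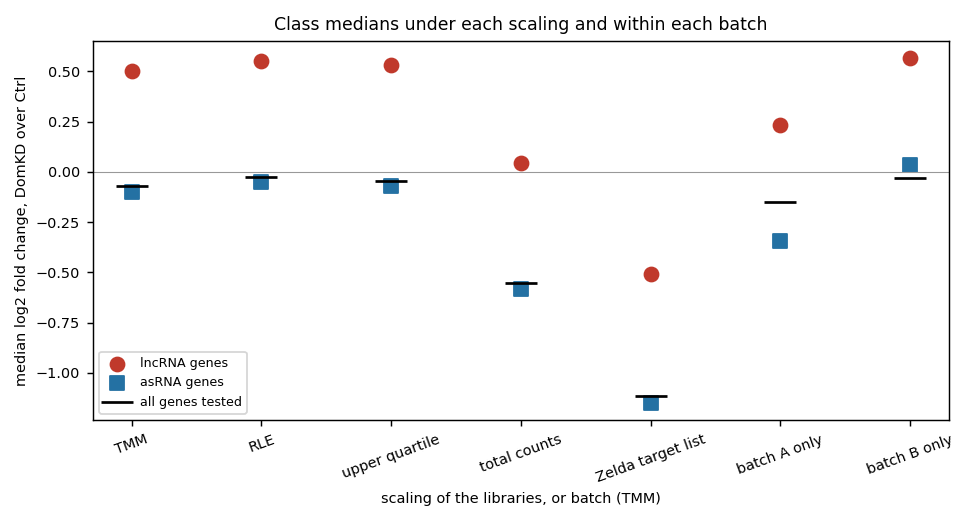
Median log2 fold change (DomKD over Ctrl) of lncRNA genes, asRNA genes and all genes tested under 5 scalings with both batches in the fit, and as differences of mean log2 CPM within batch A and within batch B under TMM. The lncRNA median stood above that of all genes in each column but was at -0.51 with scaling on the Zelda target list, and the asRNA median followed that of all genes in the 5 scalings. A change of scaling moves all genes nearly alike, so the 5 scalings are not separate checks of these distances.

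The lncRNA genes with the highest Ctrl signal per length, among those that no gene overlaps on the same strand, were examined first. At the top was lncRNA:CR43887 (chr3L:11693135-11693661, plus strand, 1 exon), which has no described function in the sources used. It had 2143, 2155 and 1516 CPM in DomKD, against 1033, 687 and 556 CPM in Ctrl, which per kilobase was 3677 CPM in DomKD and 1440 CPM in Ctrl. Every DomKD library was above every Ctrl library, with a log2 fold change of 1.17 ± 0.17 (SE, adjusted p = 0.00103). The next by level was lncRNA:marge (chr3L:14976626-14977631, minus strand), with 516, 632 and 525 CPM in DomKD, against 446, 269 and 304 CPM in Ctrl. It was higher by 0.62 ± 0.17 (SE, adjusted p = 0.0241), and Ctrl A1 came close to the DomKD libraries. lncRNA:CR45677 (chr3L:20395394-20395851, minus strand), next by level, averaged 129 ± 13.1 CPM in DomKD and 111 ± 42.1 CPM in Ctrl (SD, n = 3 each), the groups overlapped, and it did not pass (adjusted p = 0.147).

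The promoter windows of 3 members (250 bases before to 50 after the annotated start, RefSeq genome of dm6) are printed because they hold motifs that the text returns to. TAGteam sites (CAGGTAG, its variant TAGGTAG or its variant CAGGTAA, on either strand) and the DRE (TATCGATA, a palindrome) are in capitals.
lncRNA:CR43887, chr3L:11692885-11693184, plus strand: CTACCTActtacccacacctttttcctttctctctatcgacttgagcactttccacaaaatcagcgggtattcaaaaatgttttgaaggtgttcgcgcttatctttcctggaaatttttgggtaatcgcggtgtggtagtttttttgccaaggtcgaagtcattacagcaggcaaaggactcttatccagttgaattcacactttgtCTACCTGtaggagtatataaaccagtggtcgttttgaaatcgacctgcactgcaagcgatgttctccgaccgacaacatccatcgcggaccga
lncRNA:CR43951, chr3L:16048985-16049284, plus strand: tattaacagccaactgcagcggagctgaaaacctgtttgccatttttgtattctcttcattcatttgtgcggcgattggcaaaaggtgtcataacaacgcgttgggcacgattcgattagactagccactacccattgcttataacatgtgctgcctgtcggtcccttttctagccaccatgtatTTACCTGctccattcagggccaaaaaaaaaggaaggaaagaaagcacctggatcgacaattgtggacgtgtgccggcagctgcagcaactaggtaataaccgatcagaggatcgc
asRNA:CR44690, chrX:2180767-2181066, minus strand: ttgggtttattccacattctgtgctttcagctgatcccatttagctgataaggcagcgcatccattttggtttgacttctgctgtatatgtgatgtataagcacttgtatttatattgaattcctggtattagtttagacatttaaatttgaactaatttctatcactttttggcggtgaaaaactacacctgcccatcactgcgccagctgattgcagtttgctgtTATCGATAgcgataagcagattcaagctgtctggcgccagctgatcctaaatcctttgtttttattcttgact
The windows of lncRNA:CR43887 and lncRNA:CR43951, both higher in DomKD, hold 2 and 1 TAGteam matches, all on the reverse strand, and that of asRNA:CR44690, lower in DomKD, holds 1 DRE.

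Across all windows, TAGteam letters were found in 4.78% of 1884 lncRNA and 6.13% of 489 asRNA windows, against 5.46% of all 17549 windows of the table. The DRE was found in 1.17% of lncRNA and 2.25% of asRNA windows, against 7.62% of all windows, and the core of the Ohler1 motif (GGTCACAC) in 0.80% and 1.43%, against 6.29%. Of 33 tested lncRNA genes with a TAGteam match 8 were higher and 0 lower, with a median log2 fold change of 0.83, against 0.50 for the 403 without. Of 13 tested asRNA genes with the match 3 were higher and 0 lower, with a median of 1.06, against -0.12 for the 211 without. Over all tested genes with the match the median was 0.44 and 25.7% were higher, which was near the shares of 24.2% for lncRNA and 23.1% for asRNA genes with it. Of 8 tested asRNA genes with a DRE 2 were lower, asRNA:CR44690 and asRNA:CR42871, and the median of the 8 was -1.10, against -0.42 over all 1213 tested genes with a DRE, of which 17.0% were lower. Of 14 tested lncRNA genes with a DRE 0 were higher and 0 lower, with a median of -0.23. These are TMM values and describe the letters in the windows, with no test of a link to the motif.

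The higher lncRNA genes were then named by size of change among those with at least 100 reads, separate groups and no same-strand overlap. lncRNA:CR43951 (chr3L:16049235-16050303, plus strand) lies wholly antisense to Diap1, which encodes an inhibitor of apoptosis. It had 50.5, 10.7 and 4.71 CPM in DomKD, against 1.35, 0.597 and 1.82 CPM in Ctrl. DomKD A1 was far above the other DomKD libraries, all of them lay above Ctrl, and the log2 fold change was 3.20 ± 0.90 (SE, adjusted p = 0.0264). lncRNA:CR43126 (chr3R:28586048-28591386, plus strand) starts head to head with fkh, the forkhead transcription factor gene of the gut and salivary gland, at a distance of 784 bases. It had 50.4, 86.7 and 104 CPM in DomKD, against 28.9, 17.6 and 23.7 CPM in Ctrl, a log2 fold change of 1.80 ± 0.30 (SE, adjusted p = 0.00199). The within-batch differences were 1.19 in batch A and 2.35 in batch B. lncRNA:CR44763 (chr2R:22689495-22690295, plus strand) starts 508 bases from Ppa, an F-box protein gene, and was higher by 1.74 ± 0.40 (SE, adjusted p = 0.00998), with 28.2 to 77.8 CPM in DomKD and 4.10 to 19.4 CPM in Ctrl.

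lncRNA:CR45159 (chr3L:24290290-24290864, minus strand), inside and antisense to the synaptic gene Snap25, had 12.7, 15.4 and 16.5 CPM in DomKD, against 1.99, 8.33 and 6.88 CPM in Ctrl, and was higher by 1.93 ± 0.60 (SE, adjusted p = 0.0397). Ctrl A1 was the lowest library, without it the log2 fold change was 1.05 and did not pass, and of the 6 fits with one library left out 1 kept the call. lncRNA:CR45700 (chr2L:19322938-19326106, plus strand), 22683 bases from the nearest protein-coding start, had 40.3, 53.0 and 44.9 CPM in DomKD, against 17.4, 9.91 and 10.6 CPM in Ctrl. It was higher by 1.78 ± 0.29 (SE, adjusted p = 0.00175), and every DomKD library was above every Ctrl library. lncRNA:CR45032 (chr2R, antisense to tei) had 142 reads in DomKD libraries together and 0 in Ctrl, which set against 3 counts over the Ctrl group is at least 103-fold higher (adjusted p = 0.0114). It was named after its values were seen, and such floors cover counting error only.

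The 4 lower lncRNA genes, named after their values were seen since none met the rule for named genes, were of different kinds. lncRNA:CR42862 (chr3L:224106-230964, plus strand, 11 exons) had 260, 302 and 414 CPM in DomKD, against 860, 1124 and 921 CPM in Ctrl, and was lower with a log2 fold change of -1.46 ± 0.17 (SE, adjusted p = 0.000622). It overlaps CG33229 on the same strand, so reads in the shared part are missing from its count. lncRNA:CR43870 (chr3L:17245882-17264290, plus strand) had 69.7, 63.8 and 81.8 CPM in DomKD, against 181, 191 and 165 CPM in Ctrl, a log2 fold change of -1.28 ± 0.17 (SE, adjusted p = 0.000787). In both genes every DomKD library was below every Ctrl library. lncRNA:CR44472 (chr2R) had 2 reads in DomKD libraries together and 293 in Ctrl, a ratio of Ctrl over DomKD of 67.1 with a 95% exact counting interval of 18.4 to 557 (adjusted p = 0.0257). The fourth, lncRNA:CR31044, hosts miRNAs and is described with them.

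**Figure D3:**
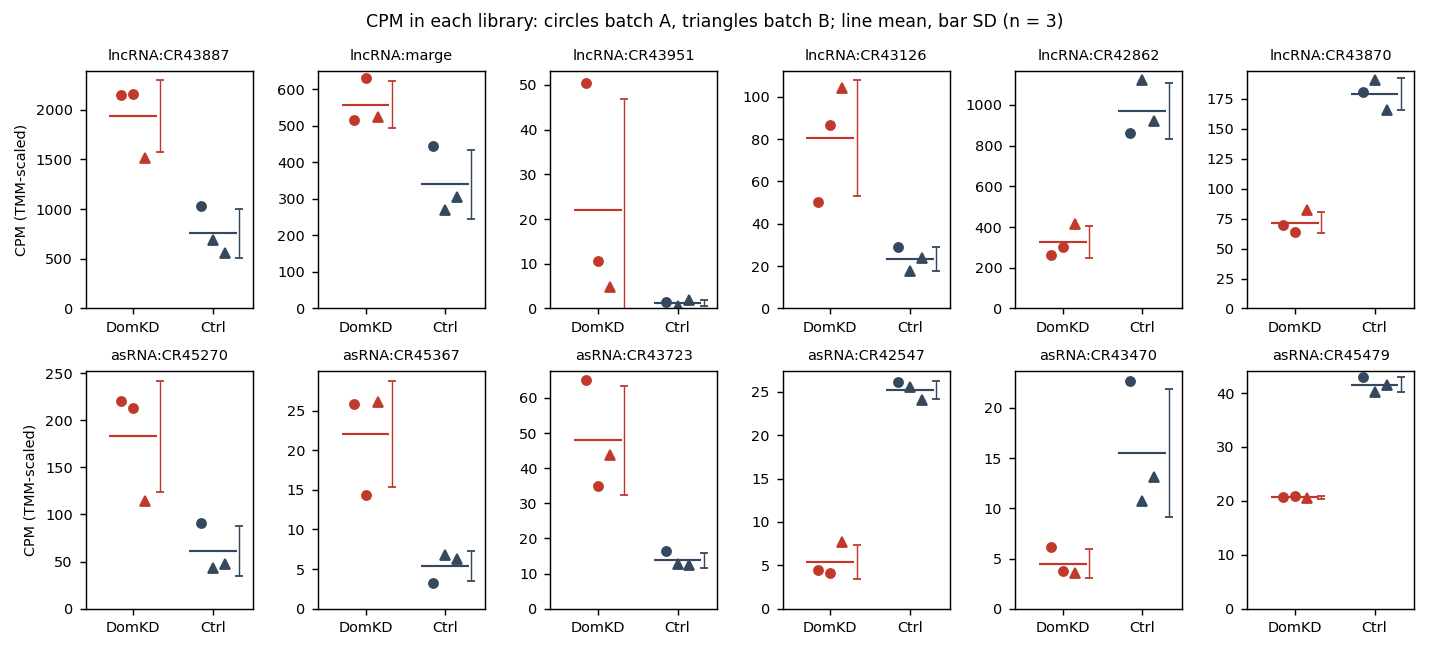
CPM (TMM-scaled) of 6 lncRNA genes and 6 asRNA genes in each library, DomKD on the left and Ctrl on the right, with circles for batch A, triangles for batch B, a line at the mean and a bar of 1 SD (n = 3). The groups did not overlap in any of these genes. lncRNA:CR43951 spread from 4.71 to 50.5 CPM among DomKD libraries, and asRNA:CR45479 stood at 20.5 to 21.0 CPM in DomKD and 40.2 to 43.0 CPM in Ctrl.

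Some host transcripts of miRNAs were among the most strongly transcribed members, while others had no read in any library. By annotation 31 lncRNA and 3 asRNA genes contain a miRNA on the same strand, a grouping made after the values were seen. Of the hosts, 25 lncRNA genes were tested, and 11 were higher, 1 was lower and 13 did not pass, with a median log2 fold change of 0.86. The higher share was 44.0%, against 12.1% of all genes tested, and the tested hosts had a median level of 726 reads, where lncRNA genes of 100 to 1000 reads were higher in 21.9% and those of 1000 or more in 69.4%. miRNA hairpins are rows of their own in the table, so reads over the hairpin itself are not in the host's count.

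The host of the mir-309 cluster, lncRNA:CR44504 (chr2R:19659645-19661847, minus strand), carries 8 hairpins whose products are known for clearing maternal mRNAs at ZGA. It had 4958, 4762 and 3723 CPM in DomKD, against 2564, 1730 and 1510 CPM in Ctrl, and was higher by 1.06 ± 0.17 (SE, adjusted p = 0.00169). lncRNA:CR45916 (chr3L:19562636-19566533, plus strand), host of mir-9a, which limits sense organ precursors, had 5250, 4695 and 3543 CPM in DomKD, against 2561, 1806 and 1422 CPM in Ctrl. Its log2 fold change was 1.05 ± 0.18 (SE, adjusted p = 0.00228), and in both hosts the libraries of batch A were the higher ones in each group.

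lncRNA:CR45361 (chr2L:20484399-20487548, plus strand), host of the muscle miRNA mir-1, was higher by 1.04 ± 0.16 (SE, adjusted p = 0.00141), with 353 to 479 CPM in DomKD and 174 to 260 CPM in Ctrl. The adjacent lncRNA:CR45360 and lncRNA:CR45359 on the same strand were higher by 1.02 and 1.03. lncRNA:CR43650 (chr2R:16829095-16839494, plus strand), host of mir-8, the fly member of the miR-200 family, had 297, 275 and 198 CPM in DomKD, against 92.4, 68.2 and 84.6 CPM in Ctrl. It was higher by 1.50 ± 0.17 (SE, adjusted p = 0.000566), and stayed at 1.38 or above within each batch.

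The hosts of both mir-276 genes, whose 3p arms share the seed printed above, were higher, lncRNA:CR46006 by 1.23 ± 0.20 and lncRNA:CR46004 by 1.62 ± 0.35 (SE, adjusted p = 0.00183 and 0.00698). lncRNA:CR46006 averaged 153 ± 63.0 CPM in DomKD and 50.3 ± 11.6 CPM in Ctrl, and lncRNA:CR46004 averaged 26.5 ± 2.14 CPM in DomKD and 8.08 ± 1.61 CPM in Ctrl (SD, n = 3 each). Smaller changes were found in lncRNA:CR44206, host of mir-184 (0.95 ± 0.25), lncRNA:CR43314, host of mir-bft (0.69 ± 0.18), and lncRNA:CR45911, host of the mir-2 family members printed above (0.54 ± 0.18, SE). Their adjusted p values were 0.0197, 0.0189 and 0.0471. These 3 hosts moved less in batch A (0.33, 0.39 and 0.21) than in batch B (1.59, 0.99 and 0.87).

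lncRNA:CR31044 (chr3R:29214562-29219667, plus strand), host of mir-279 and mir-996, whose 3p arms share one seed and are known from the choice of sensory neuron fates, was the one host lower in DomKD. It had 37.5, 54.1 and 56.5 CPM in DomKD, against 94.2, 105 and 123 CPM in Ctrl. Its log2 fold change was -1.03 ± 0.20 (SE, adjusted p = 0.00482), and the groups did not overlap in either batch. The hosts of mir-124, mir-14, mir-315 and mir-282 had log2 fold changes of 0.50, 0.35, 0.86 and 0.61 that did not pass, and lncRNA:let7C, host of let-7, mir-100 and mir-125, was near silent, with 0 reads in DomKD A1, DomKD A2 and Ctrl A1.

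**Figure D4:**
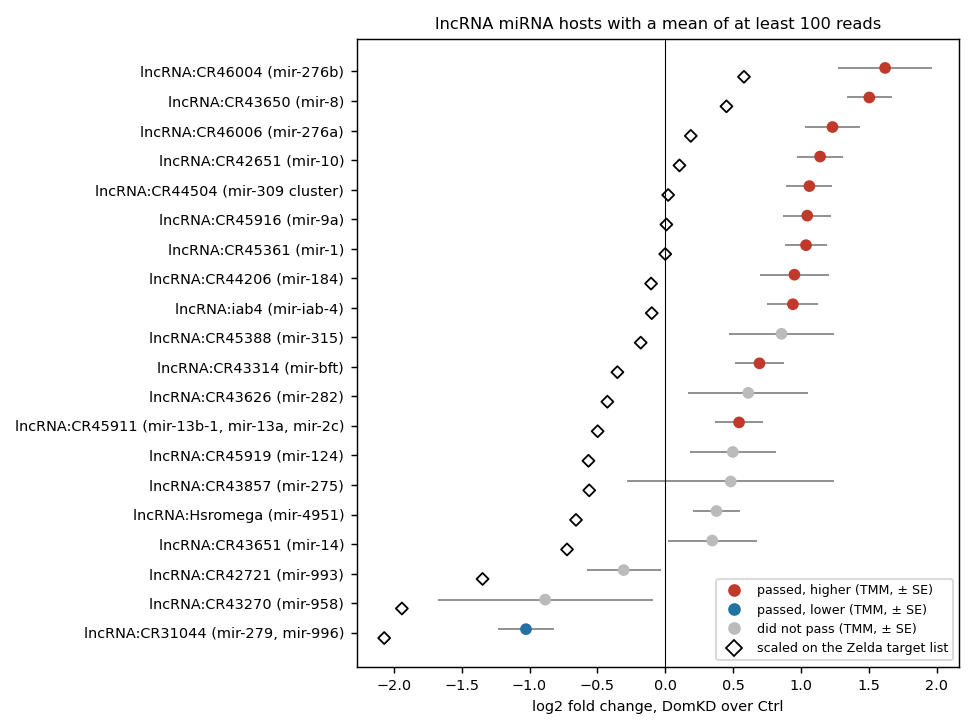
Log2 fold change (DomKD over Ctrl) of the tested miRNA host lncRNA genes with a mean of at least 100 reads, as filled points with SE under TMM scaling and as open diamonds with libraries scaled on the Zelda target list. Under TMM 11 hosts passed as higher and lncRNA:CR31044 passed as lower. With the Zelda target list no host here passed as higher, the host of mir-1 stood at -0.0003, and the hosts from that of mir-184 downward lay below 0.

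In the Hox complexes 7 lncRNA genes were higher and 0 lower under TMM, while with the Zelda target list lncRNA:CR45915 alone of them passed as higher. Over all genes tested 12.1% were higher and 9.64% lower, and the tested members had a median level of 190 reads in the Antennapedia complex and 5192 reads in the bithorax complex, levels at which 21.9% and 69.4% of lncRNA genes were higher. The bithorax complex, taken as chr3R:16656623-16972236 from Ubx to Abd-B, holds 7 members, of which 4 were tested and 3 were higher. lncRNA:bxd (chr3R:16742125-16773189, minus strand), transcribed across the control region upstream of Ubx, had 1364, 1787 and 1792 CPM in DomKD, against 871, 939 and 759 CPM in Ctrl, a log2 fold change of 0.97 ± 0.18 (SE, adjusted p = 0.00347). lncRNA:iab4 (chr3R:16850004-16856497, plus strand), whose miRNA is known to repress Ubx, had 425, 602 and 857 CPM in DomKD, against 328, 362 and 370 CPM in Ctrl, and was higher by 0.94 ± 0.19 (SE, adjusted p = 0.0051). lncRNA:CR43617 (chr3R:16892410-16897861, plus strand) was higher by 1.44 ± 0.18 (SE, adjusted p = 0.000783), with 259 to 334 CPM in DomKD and 90.1 to 132 CPM in Ctrl. The Hox genes Ubx and abd-A had log2 fold changes of 0.61 and 0.80 and passed as well (adjusted p = 0.0163 and 0.0183). With the Zelda target list, lncRNA:bxd stood at -0.07 and lncRNA:iab4 at -0.10, and neither passed.

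The Antennapedia complex, taken as chr3R:6661427-6999228 from lab to Antp, holds 17 members, of which 11 were tested, 4 were higher and 0 were lower, and 9 of the 11 had a log2 fold change above 0. lncRNA:CR42651 (chr3R:6808796-6816379, minus strand), host of mir-10, had 3140, 3235 and 3254 CPM in DomKD, against 1568, 1515 and 1206 CPM in Ctrl. It was higher by 1.14 ± 0.17 (SE, adjusted p = 0.00136) with a spread of 60.9 CPM (SD, n = 3) among DomKD libraries. lncRNA:CR44931 (chr3R:6877678-6885278, minus strand), 20954 bases from the start of the pair-rule gene ftz, had 563, 587 and 486 CPM in DomKD, against 302, 238 and 204 CPM in Ctrl, a log2 fold change of 1.03 ± 0.15 (SE, adjusted p = 0.00128). lncRNA:CR45593, antisense to the start of the cell adhesion gene Ama, had 18.7 to 29.6 CPM in DomKD and 5.72 to 7.94 CPM in Ctrl and was higher (adjusted p = 0.0151), and lncRNA:CR45915, inside and antisense to the mir-10 host, had 5.13, 14.4 and 1.57 CPM in DomKD, against 0.78, 0 and 0 CPM in Ctrl (adjusted p = 0.0193). lncRNA:CR44930 in the same complex had 73.7 to 215 CPM in DomKD and 81.3 to 144 CPM in Ctrl and did not pass (adjusted p = 0.167).

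Other lncRNAs with a known name did not pass. lncRNA:Hsromega, whose transcripts build the omega speckles of heat-shocked nuclei, had 828, 879 and 956 CPM in DomKD, against 585, 933 and 721 CPM in Ctrl, and the groups overlapped (log2 fold change 0.38 ± 0.17, SE, adjusted p = 0.147). lncRNA:cherub, known from asymmetric neuroblast division, averaged 7.23 ± 4.30 CPM in DomKD and 13.1 ± 1.88 CPM in Ctrl (SD, n = 3 each, adjusted p = 0.386). lncRNA:sphinx, known from male courtship, averaged 11.9 ± 4.39 CPM in DomKD and 16.1 ± 1.65 CPM in Ctrl (SD, n = 3 each, adjusted p = 0.603). lncRNA:yar stayed at or under 2.11 CPM in each library (adjusted p = 0.70), lncRNA:acal was not tested with reads in Ctrl B1 only, and lncRNA:noe, which blot covers on the same strand, had no read.

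The asRNA genes were compared next. By Ctrl level per length, with no same-strand overlap, the first 3 were asRNA:CR45929, asRNA:CR45270 and asRNA:CR44134, with 122, 179 and 77.2 CPM per kilobase in DomKD and 69.2, 59.7 and 56.4 CPM per kilobase in Ctrl. asRNA:CR45270 (chr2R:17795886-17801924, minus strand), antisense to Dhit, a regulator of G protein signalling, had 221, 213 and 114.8 CPM in DomKD, against 91.5, 43.7 and 47.9 CPM in Ctrl, and was higher by 1.29 ± 0.16 (SE, adjusted p = 0.000684). The length deposited for asRNA:CR45270 is 1023 bases, shorter than this annotated span, so its counts may cover only part of the span. Its values per kilobase and its rank by level rest on the deposited length, and its overlap with Dhit rests on the annotated span. asRNA:CR45929, antisense to Ldaf1 and 122 bases head to head from arm, the beta-catenin gene, was higher by 0.90 ± 0.29 (SE, adjusted p = 0.0491), with 28.0 CPM in DomKD A1 below the 28.4 CPM of Ctrl A1. asRNA:CR44134, antisense to Lipt2, had a log2 fold change of 0.55 ± 0.22 (SE, adjusted p = 0.0907).

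Among the higher asRNA genes the largest changes allowed by the rule were these. asRNA:CR45367 (chr2L:355663-356891, plus strand), antisense to the nucleoside transporter gene Ent1, had 25.8, 14.3 and 26.0 CPM in DomKD, against 3.19, 6.75 and 6.22 CPM in Ctrl, a log2 fold change of 2.31 ± 0.46 (SE, adjusted p = 0.00482). asRNA:CR45133 (chr2R:10152717-10154345, plus strand), inside the potassium channel gene KCNQ, averaged 21.1 ± 3.07 CPM in DomKD and 5.32 ± 1.49 CPM in Ctrl (SD, n = 3 each), higher by 2.15 ± 0.45 (SE, adjusted p = 0.00638). asRNA:CR43723, which overlaps 226 bases at the start of Coop, a corepressor gene of Wingless signalling, had 34.9 to 65.0 CPM in DomKD and 12.3 to 16.3 CPM in Ctrl (log2 fold change 1.71 ± 0.30, SE, adjusted p = 0.00287). asRNA:CR44018 and asRNA:CR45909, which overlap the first 290 bases of hth, a homeodomain cofactor gene of the Hox proteins, and the first 129 bases of sas, a cell surface protein gene, were higher by 1.66 ± 0.50 and 1.58 ± 0.42 (SE, adjusted p = 0.0362 and 0.0203). Their DomKD and Ctrl libraries did not overlap. Of the 6 fits with one library left out, 1 kept the call of asRNA:CR44018 and 2 kept that of asRNA:CR45909.

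All 9 lower asRNA genes passed as lower with the Zelda target list too, where 4841 of all 10429 genes tested passed as lower. That scaling moved the bulk of genes down, so these calls could hardly be lost on it. asRNA:CR42547 (chr2R:21631421-21634040, minus strand), antisense to CG15674, had 4.46, 4.11 and 7.70 CPM in DomKD, against 26.1, 25.5 and 24.1 CPM in Ctrl, a log2 fold change of -2.14 ± 0.39 (SE, adjusted p = 0.0033). asRNA:CR43470 (chr3L:7250640-7252598, plus strand), antisense to CG14830 and 113 bases head to head from the Mediator gene MED4, had 6.13, 3.78 and 3.51 CPM in DomKD, against 22.7, 10.7 and 13.1 CPM in Ctrl, a log2 fold change of -1.98 ± 0.50 (SE, adjusted p = 0.0156). The adjacent asRNA:CR44690 (chrX:2175817-2180816, minus strand) and asRNA:CR45479 (chrX:2173480-2175855, plus strand), antisense to the cytochrome P450 genes Cyp4d2 and Cyp4d14, were lower with -1.09 ± 0.32 and -1.02 ± 0.25 (SE, adjusted p = 0.0326 and 0.0142). asRNA:CR45479 stood at 20.6, 21.0 and 20.5 CPM in DomKD, against 43.0, 40.2 and 41.5 CPM in Ctrl, with little spread in either group.

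asRNA:CR45149 (antisense to Arms) averaged 6.66 ± 1.39 CPM in DomKD and 16.7 ± 2.68 CPM in Ctrl (SD, n = 3 each, log2 fold change -1.45 ± 0.44, SE, adjusted p = 0.0362). asRNA:CR44029 on chromosome 4, antisense to unc-13, had 14.5 to 53.7 CPM in DomKD and 45.5 to 74.5 CPM in Ctrl, so that its groups overlapped (adjusted p = 0.0336). The other 3 lower asRNA genes had libraries at 0. asRNA:CR44368 had 0, 11 and 0 reads in DomKD, against 119, 272 and 278 reads in Ctrl (adjusted p = 0.0268). asRNA:CR45891, antisense to CG9593, and asRNA:CR42871, 183 bases head to head from Hsp110, had 0 reads in DomKD and 394 and 232 reads in Ctrl, which against 3 counts over the DomKD group is at least 60.2-fold and 35.4-fold lower (adjusted p = 0.00709 and 0.0318). DomKD libraries held more zeros in general: 27.7%, 19.2% and 12.9% of the 224 tested asRNA genes had no read in DomKD, against 8.93%, 3.12% and 1.79% in Ctrl, and over all genes tested the shares were 5.41% to 9.72% in DomKD and 1.55% to 3.13% in Ctrl. The part of these zeros in the lower calls was not tested.

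Medians differed by position against protein-coding genes. Of the lncRNA genes 358 overlap a protein-coding gene on the other strand, 224 start within 1000 bases head to head from one, and 1304 do neither, and 488 of 489 asRNA genes are antisense. The 254 tested lncRNA genes that do neither had a median log2 fold change of 0.71 with 32 higher and 3 lower. The 116 tested antisense lncRNA genes had a median of 0.41 with 16 higher and 1 lower, and the 66 tested head-to-head ones had a median of 0.00 with 4 higher and 0 lower. The last share, 6.06%, was below the 12.1% of all genes tested. The differences between positions were not tested.

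Each member was then set beside its partner. For 197 asRNA genes with a tested antisense partner, Spearman's rho between the log2 fold changes was 0.26, for 108 antisense lncRNA genes it was 0.24, and for 58 head-to-head pairs it was 0.48. The values of a pair come from the same libraries, and they stand as a description with no test. With at least 50 reads in both genes rho was 0.26 (99 pairs), 0.49 (45 pairs) and 0.63 (32 pairs). Of 11 higher asRNA genes with a tested partner, 6 partners were higher, 1 was lower (Cht6, a chitinase gene, opposite asRNA:CR45185) and 4 did not pass. Of 8 lower asRNA genes with a tested partner, no partner passed. Over all 197 pairs 28 partners were higher and 12 lower.

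All 4 higher head-to-head lncRNA genes had a partner that was higher too: fkh (1.32 ± 0.19), Ppa (1.21 ± 0.18), CG11018 (2.09 ± 0.31) and the gap junction gene Inx2 (0.85 ± 0.16, SE). Over all 58 head-to-head pairs 13 partners were higher and 4 lower. Of 14 higher antisense lncRNA genes with a tested partner 8 partners were higher, among them Diap1 (1.06 ± 0.16), the cell cycle factor gene E2f1 (0.69 ± 0.18) and Traf4 (0.96 ± 0.16, SE), and 6 did not pass. Over all 108 such pairs 34 partners were higher and 4 lower. Among the partners that did not pass, Snap25 had a log2 fold change of -0.18 (adjusted p = 0.446) where lncRNA:CR45159 had 1.93, and CG14830 had 2.08 (adjusted p = 0.168, 57.2 reads on average) where asRNA:CR43470 had -1.98. In Ctrl the asRNA gene had more CPM per kilobase than its partner in 62 of 197 pairs, with a median ratio of 0.336, and the antisense lncRNA gene in 31 of 108, with a median ratio of 0.196.

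**Figure D5:**
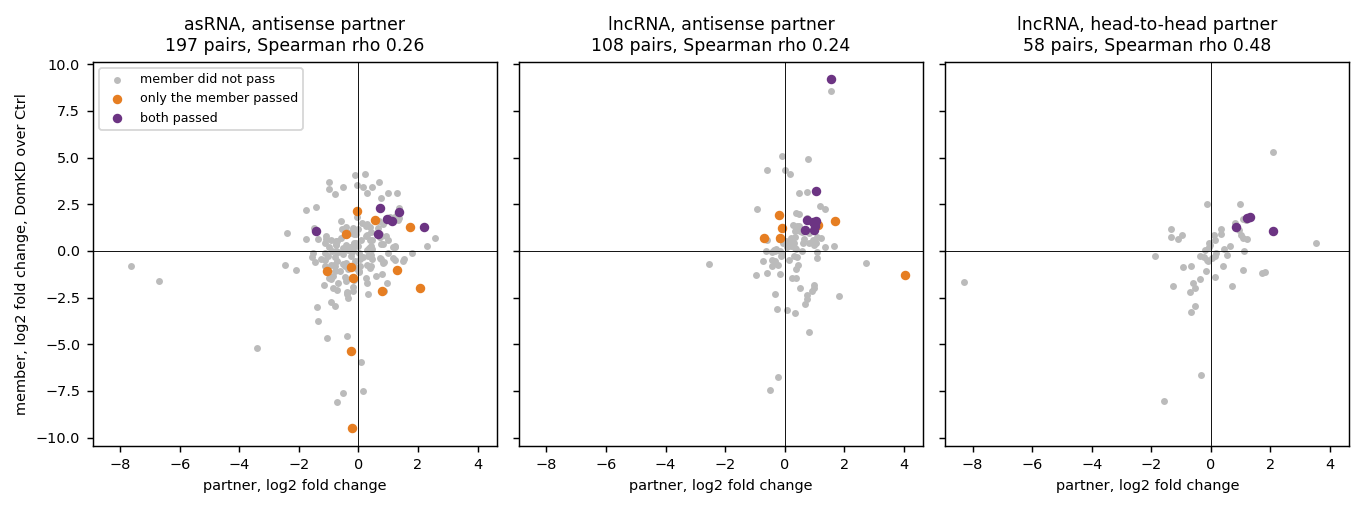
Log2 fold change (DomKD over Ctrl, TMM) of each member against that of its protein-coding partner, for 197 asRNA and 108 lncRNA genes with an antisense partner and 58 lncRNA genes with a head-to-head partner. All 4 head-to-head pairs with a member past the test had both genes higher under this scaling, while none of the 8 lower asRNA genes with a tested partner had a partner that passed, against 28 higher and 12 lower partners over all 197 asRNA pairs.

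Of the 77 called members 21 (27.3%) lay within 50000 bases of another called member, and all 21 went the same way as those neighbours, where 64 of the 77 calls were higher. These groups were the members around the mir-10 host, lncRNA:iab4 with lncRNA:CR43617, the mir-1, mir-9a and mir-276 regions, a pair beside Ppa, a pair on 2L with lncRNA:CR45700 and lncRNA:CR45258, a pair on 2L with lncRNA:CR44917 and lncRNA:CR44920, and the lower pair opposite the cytochrome genes on X. Among all 660 tested members 374 (56.7%) had another tested member as near, and whether calls lay nearer than tested members do was not tested. A test of whether the change between DomKD and Ctrl differed by batch (edgeR interaction term) called 0 of 660 members, with 24 at an unadjusted p under 0.05. Ctrl in batch A and DomKD in batch B had a single library each, so these counts cannot show that the batches agreed. The matching counts over all genes tested are not given here.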

How the data were processed

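Reads per gene were deposited by the authors as whole-number counts, 1 column per library. Per the study's methods, reads were trimmed with Cutadapt 2.5, tetramer identifiers were extracted with UMI-tools 1.0, reads were aligned to dm6 with Bowtie2, and reads on the gene's strand were counted with featureCounts without deduplication. A read over 2 genes of the same strand is not counted, and PCR copies are counted, so intervals and floors cover counting error only. Symbols and positions came from Ensembl release 115, whose assembly is that of the files, and 17626 of 17753 identifiers matched. The deposited length, used for CPM per kilobase, equalled the annotated span in 99.28% of members.

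The 10429 genes that averaged 10 counts or more over the 6 libraries were tested with edgeR 4.0.16 (quasi-likelihood, robust, TMM) in R 4.3.3 with batch and group as terms, and p-values were adjusted by Benjamini-Hochberg over all of them at a threshold of 0.05. CPM are TMM-scaled. SE are the fold change over the square root of the test's F value. Genes were named by 3 rules: an established name, the 5 largest passing changes per class and direction (mean of at least 100 counts, groups apart, no same-strand overlap), and the 3 highest Ctrl levels per kilobase. Genes of the miRNA hosts, Hox complexes and counts of 5 or fewer were added after values were seen. The members, lists and rules were chosen with earlier results of these data known. Alternatives were other scalings, the study's DESeq2 model (1.42.0) on a Zelda target list, other count filters, models without batch or with a replicate block, single batches, members with no same-strand overlap, and each library left out. P-values measure the spread between pools of embryos. The fits were tested on simulated counts.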

Additional observations from a re-analysis of the deposited data

How the results depend on the processing

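The count of lncRNA genes past the threshold (56) changed by over 1.5 times with a replicate block in place of batch (33) and with DESeq2 (90), and that of asRNA genes (21) with the Zelda target list (52, with 0 higher and 52 lower), no batch term (13), a replicate block (9), DESeq2 (36) and DESeq2 on the Zelda target list (62, with 2 higher and 60 lower). For all genes past the threshold the count was 2264, against 4904 with the Zelda target list (63 higher and 4841 lower) and 1035 with the block. It was 4964 with DESeq2 on that list. With DESeq2 with batch and with no batch term the count over all genes changed by no more than 1.5 times. Leaving out one library gave 0 to 83 lncRNA and 0 to 34 asRNA genes. Without DomKD B1 both counts were 0, and batch B then held Ctrl libraries alone. Without Ctrl A1 they were 23 and 2, without Ctrl B1 36 and 7, and without DomKD A1 83 and 34, and the asRNA count was 7 without Ctrl B2. Over all genes tested, leaving out one library gave 9 to 3082 calls. The count was 9 without DomKD B1, 647 without Ctrl A1, 1295 without Ctrl B1 and 1351 without Ctrl B2. Correlations of same-numbered libraries across groups ran from -0.36 to 0.24. The pairs with the same full label, A1 and B1, were at 0.2 and 0.24. Differently numbered pairs of the same batch, DomKD A2 with Ctrl A1 and DomKD B1 with Ctrl B2, were at 0.16 and 0.24. These are deviations from means of 3 libraries, so they cannot settle whether the numbers pair the libraries. The cause of the lower counts with the block was not tested.

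The lncRNA median (0.50) was 0.045 with total counts, 0.23 within batch A, -0.51 with the Zelda target list, -0.65 with DESeq2 on that list and -0.0325 with no count filter, and 0.41 to 0.65 with one library left out. The asRNA median (-0.10) was -0.58 with total counts, -1.15 with the Zelda target list, -1.33 with DESeq2 on it, -0.34 with no count filter, -0.34 within batch A, 0.028 with no batch term and 0.035 within batch B, and -0.17 to 0.00 with one library left out. The median log2 fold change of all genes tested was -0.56, -1.11 and -1.35 under total counts, the Zelda target list and DESeq2 on it, and -0.15 with no count filter and within batch A. With at least 50 counts in both genes, rho with the partner was 0.49 for antisense and 0.63 for head-to-head lncRNA genes. In windows of 500 bases before to 100 after the start, TAGteam letters were in 9.13% of lncRNA and 12.9% of asRNA windows, the DRE in 2.12% and 4.70%, and the Ohler1 core in 1.33% of lncRNA windows.

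These genes were below 0, first with the Zelda target list and then with DESeq2 on it: asRNA:CR43957 (-0.15, -0.44), asRNA:CR45929 (-0.15, -0.41), lncRNA:CR43314 (-0.35, -0.45), lncRNA:CR44206 (-0.10, -0.30), lncRNA:CR44931 (-0.0051, -0.13), lncRNA:CR45361 (-0.0003, -0.42), lncRNA:CR45911 (-0.50, -0.79), lncRNA:Hsromega (-0.66, -1.10), lncRNA:bxd (-0.066, -0.34), lncRNA:iab4 (-0.10, -0.44) and lncRNA:marge (-0.43, -0.53). With the list in edgeR lncRNA:CR44930 was at -0.63, and of the higher lncRNA genes also lncRNA:CR43264 at -0.35, lncRNA:CR30055 at -0.33, lncRNA:CR44933 at -0.10, lncRNA:CR45360 at -0.03 and lncRNA:CR45359 at -0.0075, and with DESeq2 on the list asRNA:CR45185 was at -0.58, lncRNA:CR42651 at -0.11, lncRNA:CR44504 at -0.042, lncRNA:CR45159 at -0.078, lncRNA:CR45677 at -1.17 and lncRNA:CR45916 at -0.037. Of the called members, lncRNA:CR42862, lncRNA:CR43870, lncRNA:CR31044, asRNA:CR45891 and asRNA:CR42547, all lower in DomKD, passed in all 10 alternatives across genes that kept the 6 libraries. These alternatives include edgeR and DESeq2 on the Zelda target list, with all-gene medians of -1.11 and -1.35, which favours lower calls. With one library left out, asRNA:CR45891 kept its call in 2 of 6 fits. lncRNA:CR31044 and asRNA:CR42547 kept it in 4, and lncRNA:CR42862 and lncRNA:CR43870 in 5. Higher members such as lncRNA:CR43887, lncRNA:CR42651, lncRNA:CR44504, lncRNA:CR45916, lncRNA:CR43650 and asRNA:CR45270 passed in 8 of the 10, and each of these kept its call in 5 of the 6 fits. Some other calls rested on most libraries being present. Those of asRNA:CR45929, asRNA:CR44029, lncRNA:CR45911 and lncRNA:CR45915 were kept in 1 of the 6 fits with one library left out. Those of asRNA:CR45149, asRNA:CR44690, asRNA:CR45479 and lncRNA:marge were kept in 2. Why calls were lost was not tested. Of the 436 tested lncRNA genes 295 had a mean under 100 reads, and 5 of these passed.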
